A study of Mus musculus with 6 samples.

Results

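The mitochondrial ribosomal protein genes were compared between the gastrocnemius muscle of young mice, aged 13 weeks, and that of aged mice at 26 months, with 3 mice in each group. All 6 animals were male C57BL/6J mice, none carried an engineered allele or received a treatment in the labels, and the gastrocnemius is a mixed, mainly fast calf muscle of the hindlimb. Total RNA of each mouse was labelled with Cy3 and hybridized to 1 single-colour Agilent mouse expression array. A gene was taken as a mitochondrial ribosomal protein gene when its symbol began with Mrpl or Mrps (named for the large and the small subunit) followed by a number. Mrps30 and Mrps18a belong to the large subunit despite their symbols and are counted there. This rule uses no measured value. It found 78 genes, represented by 100 of the 55681 probes, and 77 of the 20900 genes that could be tested. The remaining gene, Mrpl21, had 1 probe, which was well above background on 0 of 6 arrays. Each of the 77 tested genes was well above background on all 6 arrays.

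The mitochondrial ribosome translates the few messages of the mitochondrial genome, all of which encode hydrophobic subunits of the respiratory chain and the ATP synthase. Its ribosomal RNAs come from the mitochondrial genome, whereas every one of its proteins is encoded in the nucleus, made in the cytosol and imported. The small subunit decodes the message, and the large subunit joins the amino acids and feeds the chain through a tunnel to the inner membrane. Many of its proteins descend from those of bacterial ribosomes, and others were added later in evolution. Skeletal muscle depends on these ribosomes for its oxidative enzymes, and loss of oxidative capacity in old muscle is a long-standing topic.

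The promoters of these genes hold some short words, known as sites of nuclear factors of the respiratory chain, more often than other promoters. RefSeq windows of 300 bases (250 before and 50 after the transcription start, GRCm38.p6) were given for 69 of the 78 genes, in 75 windows. Each word was searched on both strands. The ETS-type word CCGGAAG, of the kind that GABPA binds, stood in 34.7% of these windows, against 8.86% of all 32851 windows and 11.6% of the 21263 windows of protein-coding genes. The word GCGCATGCG, part of the NRF1 site, stood in 9.33% of them against 1.75% of all windows and 2.35% of the coding ones. The word AAGATGGC, part of the YY1 site, stood in 16% against 2.75% and 3.05%. The Sp1 word GGGCGG was in 52% against 35.7% and 46.2%, and the TATA word TATAAA in 6.67% against 13.6% and 12.6%. Windows are not all separate, since those of Mrpl2 overlap and hold the same Sp1 matches. By gene, 34 of the 69 held the Sp1 word. Matches of different words overlapped in 2 of the 75 windows, and the NRF1 word can overlap its own reverse complement. The windows of the mitochondrial ribosomal protein genes had a median GC content of 58.7%, against 52.7% over all windows and 56.3% over the coding ones. A match describes the letters of the window and does not show that a factor binds there.

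The 120 bases before the start of 4 of the genes are given below, to set the words beside the array values that follow. The capitals mark the words. Mrpl34 (chr8:71464806-71464925, plus strand) holds the ETS word and was among the genes with the lowest ratio of aged to young. Mrpl53 (chr6:83108988-83109107, plus strand) holds the ETS word on each strand and was among the genes with the highest ratio. Mrpl22 (chr11:58171544-58171663, plus strand), whose level was nearly the same in both groups, holds the ETS and the NRF1 word. Mrps11 (chr7:78783011-78783130, plus strand) holds the YY1 word on the minus strand and the Sp1 word. This Sp1 word also lies in the window of Mrpl46, which runs on the opposite strand. The ratio of aged to young was 0.73 for Mrps11 and 1.12 for Mrpl46. The windows are from GRCm38.p6, written from 5′ to 3′.
Mrpl34: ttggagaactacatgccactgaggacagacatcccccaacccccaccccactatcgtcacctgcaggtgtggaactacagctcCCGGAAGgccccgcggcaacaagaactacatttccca
Mrpl53: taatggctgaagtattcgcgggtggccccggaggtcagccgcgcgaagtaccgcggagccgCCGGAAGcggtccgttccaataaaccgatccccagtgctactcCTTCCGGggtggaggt
Mrpl22: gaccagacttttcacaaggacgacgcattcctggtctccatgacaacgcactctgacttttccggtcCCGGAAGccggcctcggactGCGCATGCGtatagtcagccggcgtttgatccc
Mrps11: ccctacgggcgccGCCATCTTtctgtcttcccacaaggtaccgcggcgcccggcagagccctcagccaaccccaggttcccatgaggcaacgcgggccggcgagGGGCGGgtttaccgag

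The array values of genes with and without a word are given as a description. The 25 tested genes with the ETS word had a median of -0.14 on the log2 scale, and the 43 tested genes with a window but without the word had -0.15, with 20 and 28 genes below 0. For the 7 genes with the NRF1 word and the 12 with the YY1 word the medians were 0.04 and 0.02, against -0.16 for the genes without each word. Below 0 were 3 of the 7 and 6 of the 12, against 45 of 61 and 42 of 56 without the word. For the Sp1 word the medians were -0.14 with it and -0.15 without (25 and 23 of 34 genes each below 0), and for the TATA word -0.09 and -0.15 (3 of 5 and 45 of 63). These splits were chosen after the values were seen and were not tested.

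For the values below, each log2 processed signal was set relative to its array's 75th percentile, which is therefore 0. This quantity is called the log2 signal, and its difference between the means of aged and young mice is the log2 fold change. Since probes differ in how well they hybridize, the log2 signal is compared between mice and not between genes. The tissue label was checked with 9 skeletal muscle markers (among them Acta1, Ckm and Myh4), each of which was well above background on all 6 arrays. The arrays were on 1 slide and read in 1 scan. Row 1 of the slide held the 3 young mice and aged mouse 1, and row 2 held aged mice 2 and 3, so that the row is partly tied to age. Probes well above background made up 48.7% to 53.8% of an array, most on that of aged mouse 1, and the 75th percentile of the signal lay between 209 and 310. The labels do not say whether the mice came from separate litters or cages, and the p-values measure only the spread between these 6 arrays.

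Genes of the mitochondrial ribosome tended to have somewhat lower levels in aged than in young muscle, by amounts close to the spread between mice. The median log2 fold change of the 77 genes was -0.15, which is 0.901-fold, and 54 genes were lower and 23 higher in the mean of the aged mice. Among the 2777 other genes that were equally bright (mean log2 signal between 3.77 and 6.17, the quartiles of the mitochondrial ribosomal protein genes) the median was -0.08, and 62.2% were lower, against 70.1% of the mitochondrial ribosomal protein genes. Of the 77 genes 39 lay in that range, and the others were dimmer or brighter, so comparisons of all 77 with these genes are matched only in part. Over all 20900 genes the median was -0.06, and 56.9% were lower. No mitochondrial ribosomal protein gene passed the test. At an adjusted p under 0.05 (limma with Benjamini-Hochberg adjustment over all 20900 genes), 0 of the 77 genes were called, whereas 53 genes of the array were called (0.254%), and the smallest adjusted p of the 77 was 0.163, for Mrps28.

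At an unadjusted p under 0.05, 6 of the 77 genes were lower in aged mice, namely Mrps28, Mrps36, Mrps10, Mrpl2, Mrps24 and Mrpl34, and 0 were higher. The 6 genes are 7.79% of the 77, near the 8.36% of all genes that were lower at this p, while 6.07% of all genes were higher. The groups were apart, with all aged mice below all young mice, for 18 of the 77 genes (23.4%), against 13.9% of all genes and 18.1% of the equally bright ones. All aged mice were above all young mice for 1 gene, Mrpl24 (1.30%), against 7.92% of all genes and 4.79% of the equally bright ones. In these counts each gene is its brightest probe. Dimmer probes had every aged mouse above every young mouse for Mrps2 (log2 fold change 0.48), Mrpl10 (0.42) and Mrps18b (1.56). They had every aged mouse below for Mrps36, Mrps33, Mrps25 and Mrpl4. The unadjusted p of the dimmer probe was under 0.05 (limma over all probes) for Mrps2 (higher) and Mrps36 (lower). With 3 mice against 3, the smallest p that an exact permutation test (two-sided) allows for a single gene is 0.1. In whole muscle, fewer cells or fibres of a type and less RNA in each of them cannot be told apart.

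The precision of the arrays bounds how large a difference could have been missed. The median standard error (SE) of the log2 fold change was 0.168 for the 77 genes and 0.221 for all genes. The 95% interval reached 0.399 to each side in the median gene, and for 72 of the 77 genes it lay within a 2-fold change in either direction. Of the other genes, Mrps28 (-1.01) and Mrps9 (-1.06) had a lower bound below that range, and Mrpl42, Mrpl35 and Mrpl19 an upper bound above it. The log2 fold change was under 0.2 in size for 41 genes and over 0.5 for 4 genes.

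**Figure D1:**
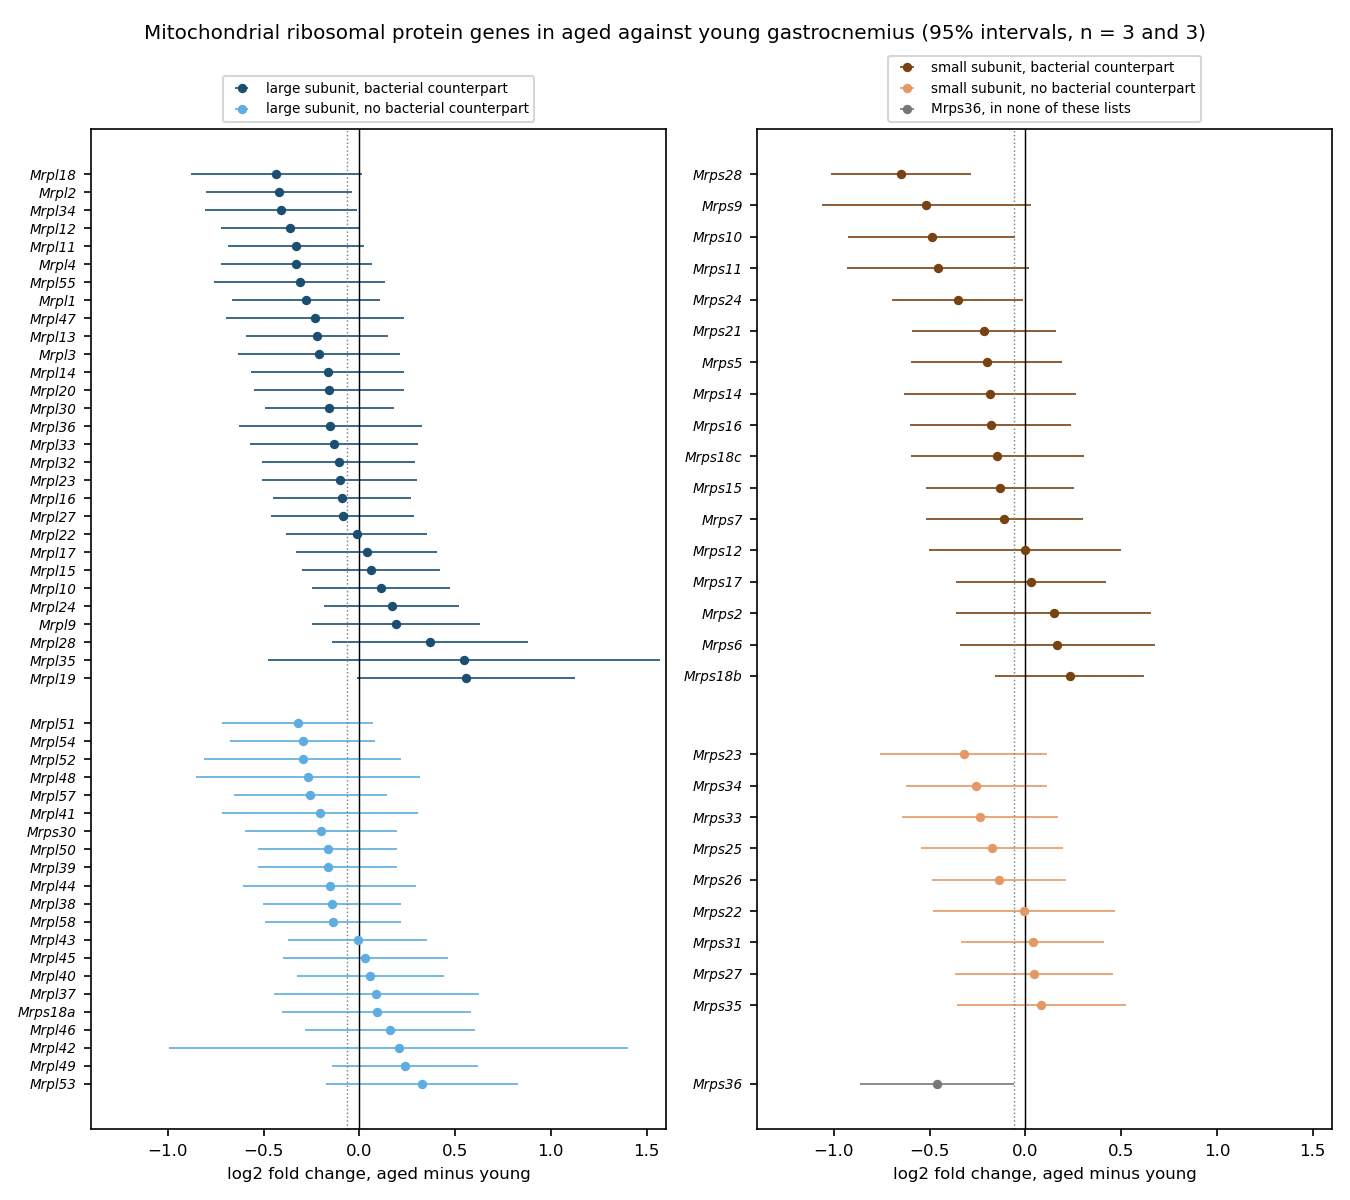
Log2 fold change (aged minus young, x axis) of each of the 77 tested mitochondrial ribosomal protein genes (y axis), grouped by subunit and by whether the protein has a bacterial counterpart. Points are the estimates and bars the 95% intervals from limma (n = 3 and 3), the solid line is 0 and the dotted line the median of all genes (-0.06). Most points lie left of 0, and the interval excludes 0 for 6 genes, all lower.

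Proteins of the small subunit with a bacterial counterpart held the lowest values. The 17 genes of this kind had a median log2 fold change of -0.18, with 13 below 0, 0 called and 3 with an unadjusted p under 0.05. Mrps28 (NM_025434), the counterpart of bacterial S1, had log2 signals of 6.48, 6.36 and 6.63 in young mice 1 to 3, against 5.78, 5.89 and 5.85 in aged mice 1 to 3, the order used throughout. The groups did not overlap, and the 3 aged mice lay close together below the young mice. The log2 fold change was -0.65 (SE 0.154, adjusted p = 0.163 from limma), which is 0.638-fold, and over the alternative ways of processing it lay between -0.81 and -0.56 with adjusted p between 0.0686 and 0.417.

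Mrps10 (NM_183086), the counterpart of bacterial S10, had log2 signals of 4.07, 4.04 and 4.34 in young mice and of 3.44, 3.87 and 3.67 in aged mice. Its groups also did not overlap, with a log2 fold change of -0.49 (SE 0.184, adjusted p = 0.305 from limma). Mrps11 (NM_026498), the counterpart of bacterial S11, stood at 2.66, 2.49 and 3.02 in young mice and at 2.28, 2.43 and 2.08 in aged mice. The groups did not overlap, although young mouse 2 and aged mouse 2 were nearly level, and the log2 fold change was -0.46 (SE 0.20, adjusted p = 0.361). Mrps24 was 5.24, 5.27 and 5.35 in young mice and 4.93, 4.99 and 4.88 in aged mice. This gene, named because of its unadjusted p, had no overlap between the groups and a log2 fold change of -0.35 (adjusted p = 0.335).

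Mrps9 (NM_023514), whose bacterial counterpart reaches the decoding site, differed among the aged mice. It was 3.41, 3.22 and 3.38 in young mice, and 3.25, 2.74 and 2.47 in aged mice. Aged mouse 1 lay within the young range and the other aged mice lay below it, so that the log2 fold change of -0.52 (SE 0.229, adjusted p = 0.369) rests on the 2 arrays of row 2. With the row as a block it was -0.08. Since row 2 held aged mice only, every value with the row as a block rests on aged mouse 1 alone. The row and the mice on it cannot be told apart here.

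Mrps18b, a relative of bacterial S18, had the highest value in the small subunit. It was listed with the genes that have a bacterial counterpart, whereas Mrps18a was listed with those that have none. The brightest probe of Mrps18b gave 6.40, 6.23 and 6.35 in young mice and 6.37, 6.62 and 6.69 in aged mice. The log2 fold change was 0.23 (SE 0.164, adjusted p = 0.546), with overlapping groups. Aged mouse 1 lay among the young mice, and with the slide row as a block the value was 0.04. A second, dimmer probe gave 2.45, 1.67 and -0.75 in young mice and 2.67, 2.53 and 2.84 in aged mice, giving a log2 fold change of 1.56 that comes mostly from the low value of young mouse 3. Of the remaining small subunit genes, Mrps21, the counterpart of bacterial S21 and the brightest of this subunit, was 7.33, 7.27 and 7.48 in young mice and 7.01, 7.27 and 7.16 in aged mice. Aged mouse 2 reached the level of young mouse 2, and the log2 fold change was -0.22 (adjusted p = 0.557).

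The 9 small subunit genes without a bacterial counterpart, Mrps22, Mrps23, Mrps25, Mrps26, Mrps27, Mrps31, Mrps33, Mrps34 and Mrps35, had a median log2 fold change of -0.14, from -0.32 for Mrps23 to 0.08 for Mrps35. Of these, 6 were below 0, and Mrps33 and Mrps34 had no overlap between the groups, with the aged mice lower. None had an unadjusted p under 0.05.

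Large subunit proteins with a bacterial counterpart ran from -0.43 for Mrpl18 to 0.56 for Mrpl19. Of the 30 genes 29 were tested, with a median log2 fold change of -0.15, 21 below 0, 0 called and 2 with an unadjusted p under 0.05. Mrpl2 (NM_025302), the counterpart of bacterial L2, which lies beside the catalytic centre, had log2 signals of 6.82, 6.96 and 7.10 in young mice and of 6.56, 6.65 and 6.42 in aged mice. The groups were apart, and the log2 fold change was -0.42 (SE 0.161, adjusted p = 0.316). Mrpl34 (NM_053162) was measured by a probe that was spotted 10 times on each array. It stood at 5.31, 5.56 and 5.66 in young mice and at 5.03, 5.21 and 5.06 in aged mice, without overlap, giving a log2 fold change of -0.41 (SE 0.166, adjusted p = 0.335).

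Mrpl18 (NM_026310), a protein of the central protuberance at the top of the large subunit, was 5.50, 5.31 and 5.69 in young mice and 4.91, 5.31 and 4.99 in aged mice. Aged mouse 2 was almost level with young mouse 2, while the other aged mice were lower, and the log2 fold change was -0.43 (SE 0.187, adjusted p = 0.358). Of the genes with the brightest probes, 2 were of this kind and had small values. Mrpl33, the counterpart of bacterial L33, was 7.79, 7.87 and 8.27 in young mice and 7.79, 7.95 and 7.79 in aged mice, so that the log2 fold change of -0.13 (adjusted p = 0.767) rests on young mouse 3 and was 0.01 without it. Mrpl14, which lies at the face joined to the small subunit, was 7.28, 7.52 and 7.70 in young mice and 7.28, 7.35 and 7.36 in aged mice. Its groups overlapped, with a log2 fold change of -0.17 (adjusted p = 0.675).

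The 2 highest values of the 77 genes were in this class. Mrpl19 (NM_026490), the counterpart of bacterial L19, was 1.37, 1.101 and 1.01 in young mice and 1.27, 1.84 and 2.04 in aged mice. Aged mouse 1 lay among the young mice and aged mice 2 and 3 above them, with a log2 fold change of 0.56 (SE 0.240, adjusted p = 0.355). Mrpl28 showed the same arrangement, at 2.93, 2.88 and 2.97 in young mice and 2.88, 3.56 and 3.45 in aged mice, giving a log2 fold change of 0.37 (adjusted p = 0.469). The young mice and aged mouse 1 were close together for this gene, and with the row of the slide as a block its value was -0.05, against 0.11 for Mrpl19. Mrpl35 was dim and spread widely among the young mice (-1.09, -0.08 and 0.63, against 0.01, 0.60 and 0.49 in aged mice), and its log2 fold change of 0.55 had an SE of 0.430. Mrpl9 was 3.63, 3.51 and 3.14 in young mice and 3.74, 3.56 and 3.56 in aged mice, giving a log2 fold change of 0.19 (adjusted p = 0.655).

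Mrpl24, a protein beside the exit of the peptide tunnel, was the gene whose brightest probe had every aged mouse above every young mouse, and it is named for that. It stood at 4.71, 4.53 and 4.65 in young mice and at 4.80, 4.87 and 4.73 in aged mice. The groups were only narrowly apart, and the log2 fold change was 0.17 (SE 0.148, adjusted p = 0.625).

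Large subunit proteins without a bacterial counterpart had a median log2 fold change of -0.14 over 21 genes, 13 of them below 0, and none had an unadjusted p under 0.05. Mrpl51, the brightest of all 77 genes, was 8.19, 8.24 and 8.42 in young mice and 7.78, 8.06 and 8.06 in aged mice. The groups did not overlap, and the log2 fold change was -0.32 (SE 0.166, adjusted p = 0.426). Mrpl42 was the most variable of the 77 genes between mice of the same age. Its log2 signals of 4.66, 4.14 and 3.41 in young mice and 4.48, 3.29 and 5.06 in aged mice overlapped widely, with the aged mice spread beyond the young ones at both ends, and the log2 fold change of 0.21 had an SE of 0.505.

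Mrpl53 (NM_026744), which sits near the stalk of the large subunit, was 6.36, 6.27 and 6.32 in young mice and 6.24, 6.92 and 6.78 in aged mice. As for Mrpl28, aged mouse 1 was level with the young mice and both arrays of row 2 were higher. The log2 fold change was 0.33 (SE 0.211, adjusted p = 0.509), and -0.07 with the row as a block. Mrpl49 was 3.28, 3.21 and 3.47 in young mice and 3.43, 3.63 and 3.61 in aged mice, giving a log2 fold change of 0.24 (adjusted p = 0.530), with overlap only between young mouse 3 and aged mouse 1.

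**Figure D2:**
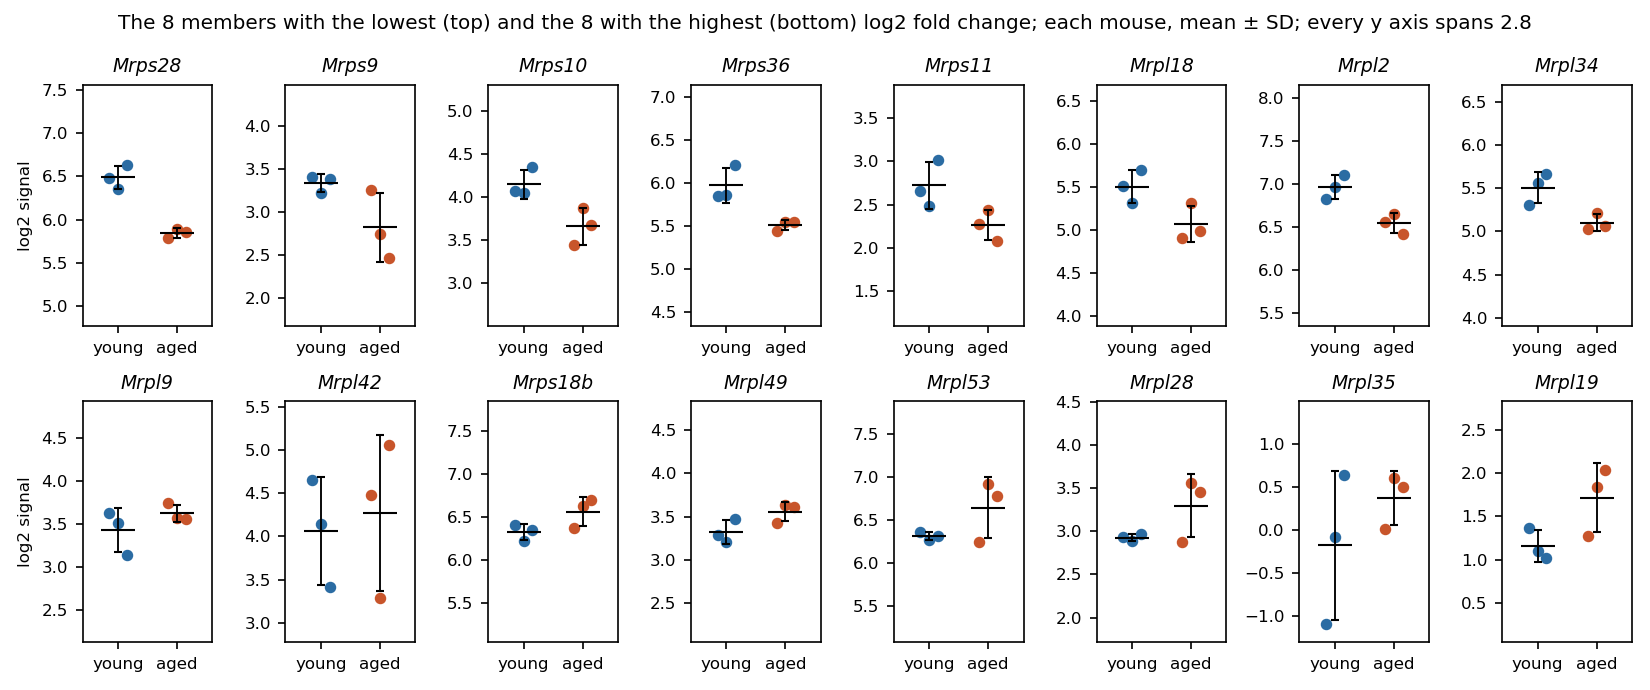
Log2 signal (y axis, 0 = 75th percentile of the array) of each mouse for the 8 mitochondrial ribosomal protein genes with the lowest log2 fold change (top row) and the 8 with the highest (bottom row). Points are mice, left to right 1 to 3 in each group, with the mean and SD (n = 3), and every axis spans the same range. In the top row the groups overlap only for Mrps9, and in the bottom row the groups overlap for each gene, often through aged mouse 1.

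By position in the large subunit, the stalk, which recruits the translation factors, had the lowest median of the 3 positions listed. Its genes were Mrpl10, Mrpl11, Mrpl12, Mrpl53 and Mrpl54, with a median of -0.30. Mrpl12 (6.84, 6.97 and 7.07 in young mice, 6.52, 6.70 and 6.59 in aged mice, log2 fold change -0.36), Mrpl11 (-0.33) and Mrpl54 (-0.30) had every aged mouse below every young one, whereas Mrpl10 (0.11) and Mrpl53 (0.33) were above 0. The 8 genes around the exit of the peptide tunnel had a median of -0.06, and the 7 of the central protuberance -0.14. These lists hold 5 to 8 genes and were not tested against each other.

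Mrps36 (NM_025369) carries the name of the ribosome but is now described as a subunit of the oxoglutarate dehydrogenase complex of the citric acid cycle (also called Kgd4). It was 5.85, 5.86 and 6.21 in young mice and 5.44, 5.55 and 5.54 in aged mice, giving a log2 fold change of -0.46 (SE 0.168, adjusted p = 0.299). Its second probe gave 5.31, 5.39 and 5.46 in young mice and 4.75, 5.03 and 4.88 in aged mice, giving a log2 fold change of -0.50, so that both probes had every aged mouse below every young one. RefSeq lists pseudogenes named after Mrps36, Mrpl23, Mrpl27 and Mrpl48, and how far these copies add to the signal was not tested.

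Conversely, 5 proteins of the ribosome have other symbols and were outside the rule. All 5 (Dap3, Ptcd3, Chchd1, Aurkaip1 and Gadd45gip1) were lower in the mean of the aged mice, with log2 fold changes from -0.27 for Aurkaip1 to -0.12 for Dap3 and a median of -0.18. None was called. Ptcd3 was 5.86, 5.96 and 5.98 in young mice and 5.58, 5.67 and 5.81 in aged mice, without overlap (adjusted p = 0.495).

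Probes of the same gene mostly went the same way. Of the 77 genes 22 had more than 1 probe that could be used, and for 3 of these the probes differed in sign. Mrps14, the counterpart of bacterial S14, was 4.02, 3.79 and 4.11 in young mice and 3.52, 3.97 and 3.86 in aged mice by the brighter probe (log2 fold change -0.19, adjusted p = 0.676), and its dimmer probe gave 0.26. Mrps7, which binds the ribosomal RNA early in the assembly of the small subunit, was 6.21, 6.05 and 6.18 in young mice and 5.82, 6.24 and 6.05 in aged mice (log2 fold change -0.11, adjusted p = 0.794), against 0.17 by the dimmer probe. Mrpl22, which lines the peptide tunnel, was 5.20, 5.07 and 5.33 in young mice and 5.09, 5.23 and 5.25 in aged mice (log2 fold change -0.01, adjusted p = 0.975), against 0.10 by the dimmer probe. In all 3 genes the groups overlapped and the estimates lay within 1 standard error of 0 by the brighter probe. Spots repeated on an array varied little, with a median SD of 0.0677 for the 3 probes spotted 10 times.

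The difference was larger for brighter probes, and so it was for all genes. The 24 mitochondrial ribosomal protein genes with a mean log2 signal of 6 and over had a median of -0.20, and 22 of them were below 0. The 1485 other genes of that brightness had a median of -0.13, and 75.2% were below 0. Between 4 and 6 the medians were -0.15 for 28 genes and -0.08 for the others, and between 2 and 4 they were -0.06 for 20 genes and -0.05 for the others. The 5 genes under 2 had a median of 0.15, against -0.04. Set against the equally bright genes between the quartiles, the median of the 77 genes differed by -0.07 on the log2 scale. All 77 genes enter this difference, and 39 of them lie between the quartiles, so it is not fully matched for brightness.

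**Figure D3:**
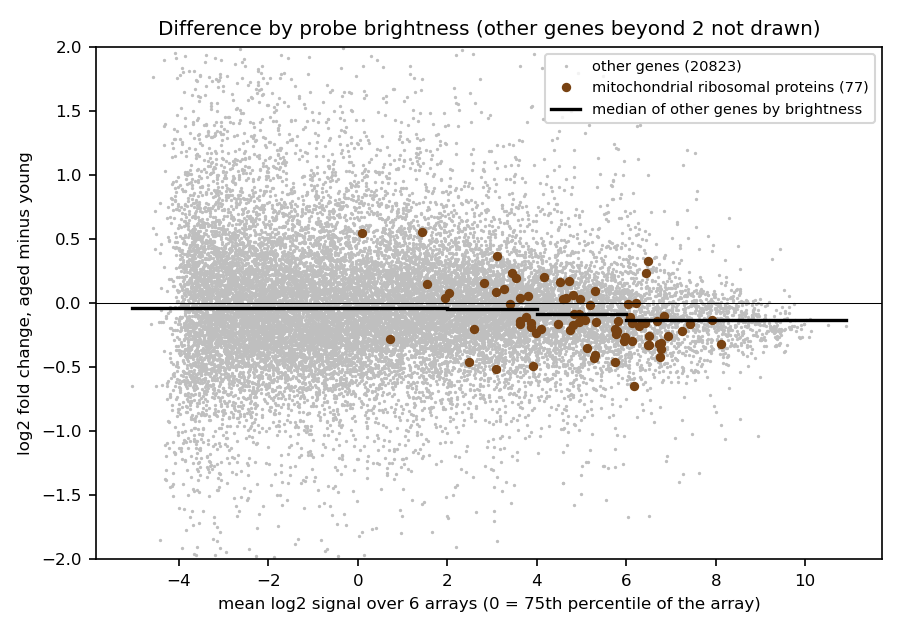
Log2 fold change (aged minus young, y axis) against the mean log2 signal over 6 arrays (x axis) for the 77 mitochondrial ribosomal protein genes (brown) and the other genes tested (grey, those beyond 2 in either direction not drawn). Black lines are the medians of the other genes in 4 ranges of brightness, which fall from -0.04 under 2 to -0.13 at 6 and over, and 22 of the 24 brown points at 6 and over lie below 0.

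Each mouse contributed unequally to the lower level. Relative to the young mean, the median deviation of the 77 genes was -0.045, -0.059 and 0.125 in young mice 1 to 3, and the aged mice followed with -0.214, -0.061 and -0.125. Aged mouse 2 was thus level with young mice 1 and 2, and the largest distance was between young mouse 3 and aged mouse 1. In the aged mice 59, 46 and 51 of the 77 genes were below the mean of the young mice, and in young mouse 3 it was 16. Aged mouse 1 was the lowest of the 6 mice for 37 genes and young mouse 3 the highest for 43 genes. In the equally bright genes the deviations were -0.013, -0.057 and 0.074 in young mice and -0.148, -0.016 and -0.088 in aged mice, so that young mouse 3 was again the highest and aged mouse 1 the lowest, but aged mouse 2 lay above young mouse 2. The 39 mitochondrial ribosomal protein genes within that range of brightness had -0.045, -0.063 and 0.1355 in young mice and -0.239, -0.089 and -0.109 in aged mice. In row 1 of the slide, aged mouse 1 against the 3 young mice gave a median of -0.21, and row 2 held aged mice only. With the row as a block the values of further genes described above also moved, to 0.11 for Mrpl49, 0.19 for Mrpl35, 0.31 for Mrpl9, 0.41 for Mrpl42, -0.51 for Mrpl51, -0.35 for Mrps21, -0.45 for Mrps14, -0.33 for Mrps7 and -0.11 for Mrpl22, and these values rest on aged mouse 1 alone.

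**Figure D4:**
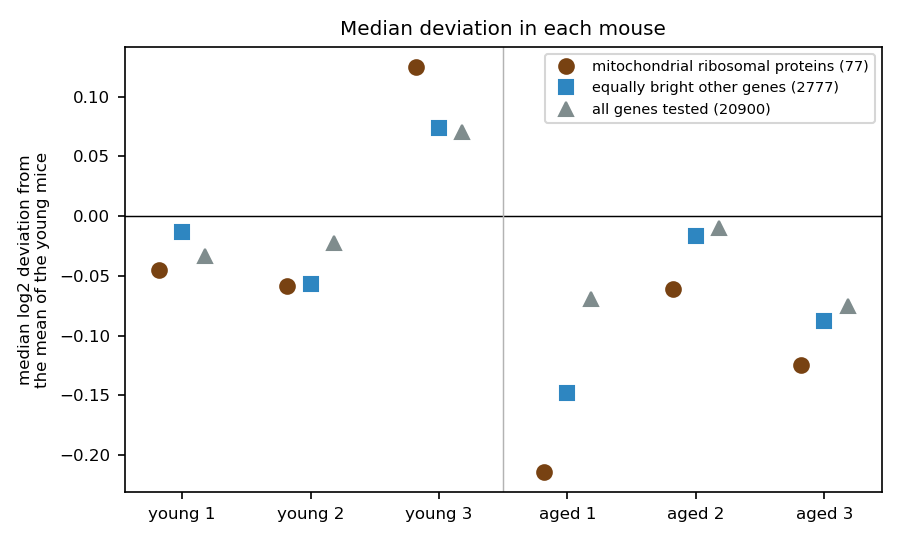
Median log2 deviation from the mean of the 3 young mice (y axis) in each mouse (x axis) for the 77 mitochondrial ribosomal protein genes, 2777 equally bright genes and all 20900 genes. The mitochondrial ribosomal protein genes lie at or below the equally bright genes in every mouse but young mouse 3, where they lie above them (0.125 against 0.074).

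Genes that serve the mitochondrial ribosome had medians nearer to that of all genes, or above it. Most of these genes had a mean log2 signal under 4, and the lists were not matched for brightness. Mitochondrial ribosomal protein genes that dim had medians of 0.15 (under 2) and -0.06 (2 to 4). The 24 tested assembly factors (of 25) had a median log2 fold change of 0.09, with 14 above 0 and 0 called. Tfb1m, which methylates the ribosomal RNA of the small subunit, was 2.14, 1.80 and 2.35 in young mice and 2.38, 2.82 and 2.85 in aged mice, giving a log2 fold change of 0.59 (unadjusted p = 0.0323, adjusted p = 0.303 from limma). The assembly GTPase Mtg1 was 4.27, 4.26 and 4.10 in young mice and 3.90, 3.90 and 3.86 in aged mice, giving a log2 fold change of -0.32 (adjusted p = 0.373), so the list held values of either sign.

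The 12 translation factors had a median of -0.06, with 9 below 0 and 0 called. Gfm1, the elongation factor that moves the ribosome along the message, was 6.16, 6.36 and 6.37 in young mice and 5.83, 5.94 and 5.84 in aged mice. The groups did not overlap, with a log2 fold change of -0.43 (SE 0.152, adjusted p = 0.290). Guf1, a further GTPase of mitochondrial translation, had a log2 fold change of -0.41 with overlapping groups (adjusted p = 0.454). Of 20 genes for mitochondrial aminoacyl-tRNA synthesis 19 were tested, with a median of -0.09 and 0 called. Pars2, which charges the proline tRNA, was 0.95, 1.12 and 1.54 in young mice and 1.89, 1.76 and 1.71 in aged mice (log2 fold change 0.58, adjusted p = 0.275), and Wars2, which charges the tryptophan tRNA, had a log2 fold change of -0.54 (adjusted p = 0.348).

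Transcription and RNA stability of the mitochondrial genome were represented by 13 genes with a median of 0.07 and 0 called. The elongation factor Tefm was 1.53, 0.98 and -0.70 in young mice and 1.78, 1.53 and 1.87 in aged mice, giving a log2 fold change of 1.12 (SE 0.538, adjusted p = 0.398) in which young mouse 3 stood apart. The terminator protein gene Mterf1a had a log2 fold change of 0.33 (adjusted p = 0.450). By the symbols listed, 0 genes of the mitochondrial genome were found on the array, so the products of these ribosomes and both ribosomal RNAs were not analysed here.

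Among 9 regulators of nuclear genes for mitochondria the median was 0.04, and 0 were called. Esrra, a nuclear receptor that drives genes of oxidative metabolism, was 6.62, 6.85 and 6.83 in young mice and 6.48, 6.23 and 6.05 in aged mice, giving a log2 fold change of -0.51 (unadjusted p = 0.0239, adjusted p = 0.285). Myc, a driver of ribosome production, was -1.05, -1.12 and -1.36 in young mice and -0.16, -0.01 and 1.497 in aged mice, giving a log2 fold change of 1.62 (unadjusted p = 0.00773, adjusted p = 0.196). The groups were apart for both genes, in opposite directions, and aged mouse 3 was farthest from the young mice in each.

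The cytosolic ribosome and complex I, the first enzyme of the respiratory chain, were set beside the mitochondrial ribosome as other large assemblies. The complex I genes listed here are not of the mitochondrial genome, so they are not products of the mitochondrial ribosome. The 85 tested genes of cytosolic ribosomal proteins had a median log2 fold change of -0.01, with 40 above 0 and 0 called. The exception in size was Rpl3, at 5.13, 4.93 and 5.23 in young mice and 5.99, 6.25 and 6.80 in aged mice, giving a log2 fold change of 1.25 (SE 0.240, unadjusted p = 0.00138, adjusted p = 0.127), while its muscle paralogue Rpl3l was lower, at 7.27, 7.26 and 7.17 in young mice against 7.03, 6.85 and 6.83 in aged mice (log2 fold change -0.33, adjusted p = 0.373). The 37 tested genes with symbols of complex I subunits had a median of -0.28, with 34 below 0 (91.9%). Of the 37, 6 had an unadjusted p under 0.05 (all lower) and 0 were called, while 8.36% of all genes were lower at this p. Most of the 37 were bright. Other genes with a mean log2 signal of 6 and over had a median of -0.13, with 75.2% below 0. Ndufa12 was 8.71, 8.81 and 8.93 in young mice and 8.28, 8.23 and 8.33 in aged mice (log2 fold change -0.54, adjusted p = 0.206), and Ndufa4l2 had a log2 fold change of -0.75 (adjusted p = 0.243). Despite their symbols, Ndufa4 is a subunit of complex IV and Ndufa4l2 its paralogue, and both are in the list. The medians of the 3 assemblies are given side by side and their differences were not tested.

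**Figure D5:**
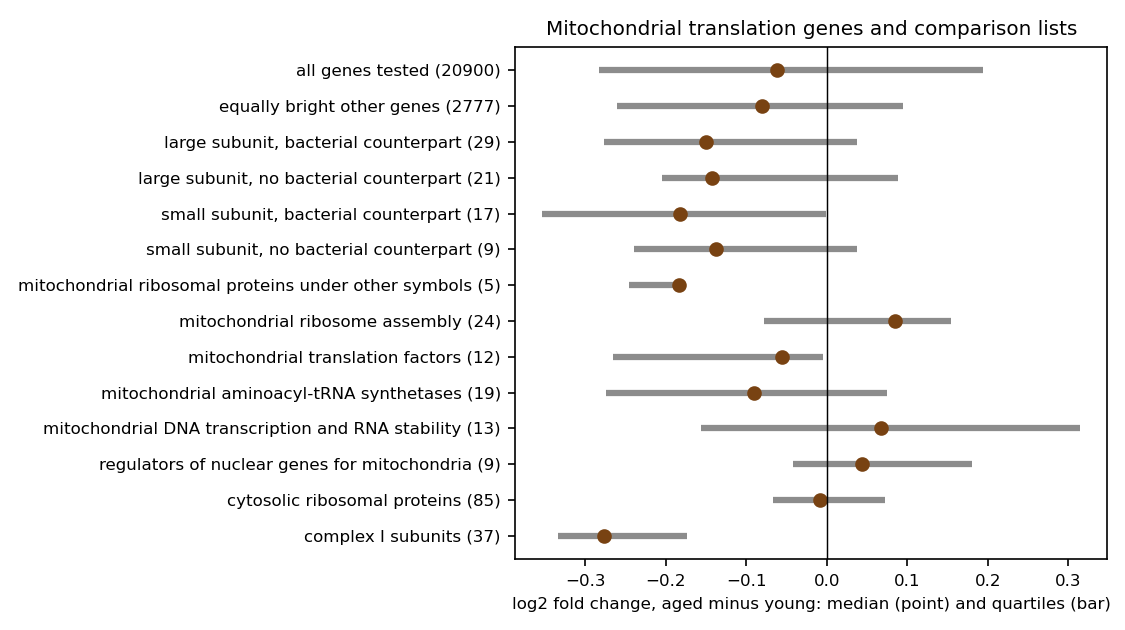
Median (point) and quartiles (bar) of the log2 fold change, aged minus young (x axis), for lists of genes (y axis, number of tested genes in parentheses). The classes of mitochondrial ribosomal proteins lie between -0.14 and -0.18, complex I at -0.28, and cytosolic ribosomal proteins (-0.01) and assembly factors (0.09) near 0. The lists differ in brightness and were not matched for it.

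Markers of 9 cell types were read beside these genes, and S100a8, S100a9 and Prx were the only ones that passed the test. The 9 muscle markers had a median log2 fold change of -0.21, with 0 above 0, and their summed signal was 5043 to 6295 times the 75th percentile in young mice and 4279 to 5411 times in aged mice. Of the neutrophil markers S100a8 and S100a9 were called, higher in aged mice (adjusted p = 0.006 for each, limma). For Retnlg and Fpr1 the probe was measurable above background on 3 of 6 arrays, so that they entered the test only through the brighter arrays and their direction is not counted. The summed signal of the 4 was 0.521 to 1.08 in young and 16.3 to 24.5 in aged mice. The summed signal of 5 of 6 macrophage markers was 17.4 to 19.0 in young and 19.2 to 24.4 in aged mice. Most of that sum was Csf1r (log2 fold change -0.05), while 4 of the 5 were above 0, with a median of 0.64. None of the 5 was called. The summed signal of 3 of 4 erythrocyte markers was 584 to 816 in young and 261 to 414 in aged mice. That of the 4 fibroblast markers was 358 to 398 in young and 143 to 324 in aged mice. Of the 4 Schwann cell markers Prx was called, lower in aged mice (log2 fold change -1.29, adjusted p = 0.0428), while their summed signal, 21.8 to 41.5 and 19.9 to 37.8, overlapped. The 4 endothelial markers summed to 13.3 to 15.7 in young and 9.56 to 11.6 in aged mice, a sum set by Cdh5 (log2 fold change -0.79) and Kdr (-0.36). Pecam1 (0.52) and Tek (0.46) were above 0, and the median was 0.05. For both, young mouse 3 (-2.33 for Pecam1 and -3.75 for Tek) was the lowest of the 6 mice. The other young mice lay within the range of the aged mice, so these 2 positive values rest on young mouse 3. The sums were, for 3 of 4 adipocyte markers, 47.3 to 51.4 in young and 33.3 to 51.5 in aged mice, and for the satellite cell marker Pax7 0.140 to 0.292 and 0.188 to 0.256. The part of these cells in the levels of mitochondrial ribosomal protein genes was not tested.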

How the data were processed

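The deposited files were Agilent Feature Extraction outputs, 1 for each mouse, and the processed signal used here was a linear intensity that the authors' software had corrected for background and for trends within the array, without scaling between arrays. Feature Extraction is version 9.5 in the submitters' processing notes and 11.0.1.1 in the file headers. The text names no array normalization or test. Spots with an outlier flag were removed, repeated spots of a probe were averaged, and log2 signals were set relative to the 75th percentile of their array. Accessions were matched to RefSeq (GRCm38.p6), which named 28331 of 55681 probes, and 12 probes were left out as flagged. A probe was kept when well above background on at least 3 of 6 arrays, and a gene was its kept probe with the highest mean. The groups were compared by lmFit and eBayes of limma 3.58.1 (R 4.3.3, tested on simulated data), with Benjamini-Hochberg adjustment over 20900 genes and a threshold of 0.05. The number of arrays limits the precision.

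The genes with values in every mouse were the 8 with the largest and the 8 with the smallest log2 fold change, the 4 with the highest mean signal and those whose probes differed in sign. From each other list, genes with an adjusted p under 0.05 and the 2 with the smallest p were named. For cell markers the former were named, with others where needed to read a sum or the test. Mrps24, Mrpl24, Mrpl10, Mrpl11, Mrpl12 and Mrpl54 were added after their values were seen. The genes and lists were chosen with earlier results of these data known. Alternatives were normexp background correction (offset 50), quantile or median scaling, the 75th percentile of detected probes, no or a stricter filter, the mean of probes, the series matrix values (identical), a variance trend, blocks for the slide row or the replicate number, and the omission of each mouse. The labels do not say that the replicate number pairs mice, so it was not a block in the main fit. Same-numbered mice had correlated deviations of -0.06, -0.27 and 0.03. With so few mice these values cannot show whether mice were paired.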

Additional observations from a re-analysis of the deposited data

How the results depend on the processing

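In each of the 17 alternatives 0 mitochondrial ribosomal protein genes were called, and the smallest adjusted p among them lay between 0.0686 (normexp) and 0.417. At an unadjusted p under 0.05 between 1 and 13 were lower and between 0 and 3 higher. Their median log2 fold change was below 0 throughout, from -0.07 with quantile normalization to -0.30 with median scaling, which also moved the median of all genes from -0.06 to -0.21, and the cause of that shift was not tested. It was -0.21 with the slide row as a block and -0.18 to -0.10 when a mouse was left out. Its difference from equally bright genes lay between -0.09 and -0.05. Between 48 and 65 of the genes were below 0, and 51 of 77 kept 1 sign throughout.

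Calls over all genes (53) were 8 without a filter on dim probes, where 36710 genes were tested, 35 with probes above background on all arrays, and 5 with a replicate block (mice of the same number as a pair). They ranged from 1 without aged mouse 3 to 199 without aged mouse 1, and were 8 or 9 without any other mouse. Of the 53 calls 41 were higher in aged mice, against 26 of 42 with median scaling and 22 of 41 with the slide row as a block, and the cause was not tested. With that replicate block, the median of the mitochondrial ribosomal protein genes was -0.15 and 1 gene was lower at an unadjusted p under 0.05.

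Of the 23 genes that the naming rule chose among them, 16 kept their sign throughout. With the slide row as a block Mrpl53 was -0.0747 and Mrpl28 -0.0491. Mrpl33 was 0.00553 and Mrpl22 0.0701 with quantile normalization, and Mrpl22 was 0.0210 with the 75th percentile of detected probes. When all probes of a gene were averaged, Mrps14 was 0.0393, Mrps7 0.0282 and Mrpl22 0.0451. Leaving out 1 mouse gave -0.185 to 0.699 for Mrpl42, -0.224 to 0.0137 for Mrpl33, -0.212 to 0.000232 for Mrps7 and -0.0775 to 0.0494 for Mrpl22.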
